A study of Homo sapiens with 4 samples.

Results

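Peaks of YBX1-bound RNA that the annotation placed upstream of a protein-coding transcript, and whose middle fell inside no transcript named anywhere in the data, are described here. A peak was taken when its class was upstream, when at least 1 of its rows carried a RefSeq messenger RNA accession (NM_), and when its middle lay between the start and the end of no transcript listed for either replicate. The rule used class and position, and no measured value. It found 1466 of 27669 peaks in the replicate 1 list (5.30%) and 1143 of 25492 in the replicate 2 list (4.48%), or 2606 distinct positions of 53139 in all. They made up 31.1% and 30.1% of the 4716 and 3794 upstream peaks with an NM_ row. Below they are called outside upstream peaks, and the others of that class inside upstream peaks.

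The material was PANC-1, an established line of human pancreatic cancer cells, and every sample had first been exposed to extracellular vesicles (Evs) derived from CAFs, the usual short form of cancer-associated fibroblasts. The 4 samples were 2 YBX1 immunoprecipitates (IP), made from ultraviolet-crosslinked lysates treated with RNase I and DNase, and 2 inputs with no antibody. Each deposited list set 1 IP against the input of the same number, so each peak has 1 value per replicate, and every peak level below is the authors' own value. No cells without vesicles and no control antibody were analysed here, and nothing in the labels tells if separate cultures were used for the replicates.

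YBX1, a protein with a cold-shock domain, binds messenger RNA and other RNA, and it is known for effects on how long messages last and how they are translated. The annotated start of a gene is where transcription of that gene is held to begin, so RNA recovered kilobases before it is not part of the annotated transcript. Such stretches can hold a neighbouring gene, a transcript that runs on past the end of a neighbour, or RNA transcribed away from a promoter in the other direction. The lists give peaks no strand of their own, so the direction of the RNA under a peak was not measured.

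The way classes were assigned bears on what an upstream peak is. Of the peaks that lay inside a listed gene and also 2000 to 20000 bp before a listed start, 92.7% in replicate 1 (4136 of 4462) were classed upstream, 207 were classed exon and 119 intron. In replicate 2 the upstream share was 90.3% (3444 of 3815), with 220 exon and 151 intron peaks. Among these peaks the upstream label was thus the usual one. A start is listed only when some peak was assigned to its transcript, and an upstream label does that by itself. The count therefore favours the upstream label, and peaks before unlisted starts are not in it. A gene whose peaks all lie in the upstream window of another gene can then be missing from the lists under its own name, and the outside upstream peaks may lie in such genes as well as between genes.

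The outside upstream peaks lay nearer to the start of the gene they name, in the median, than the inside ones. Measured to the nearest NM_ start, the median distance was -8592 bp in replicate 1 and -8582 bp in replicate 2, against -10021 and -10722 bp for inside upstream peaks. Per kilobase, 8.53% of the replicate 1 peaks lay 2000 to 5000 bp before the start and 3.87% lay 15000 to 20000 bp before it. The same shares in replicate 2 were 8.60% and 3.76%. For inside upstream peaks they were 6.54% and 4.86% in replicate 1 and 6.07% and 5.24% in replicate 2, a flatter course. These are descriptions of positions, and the window itself was set by the class. The split into outside and inside was made by position too, which can by itself make the distances differ. Nothing is therefore read from that difference.

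**Figure D1:**
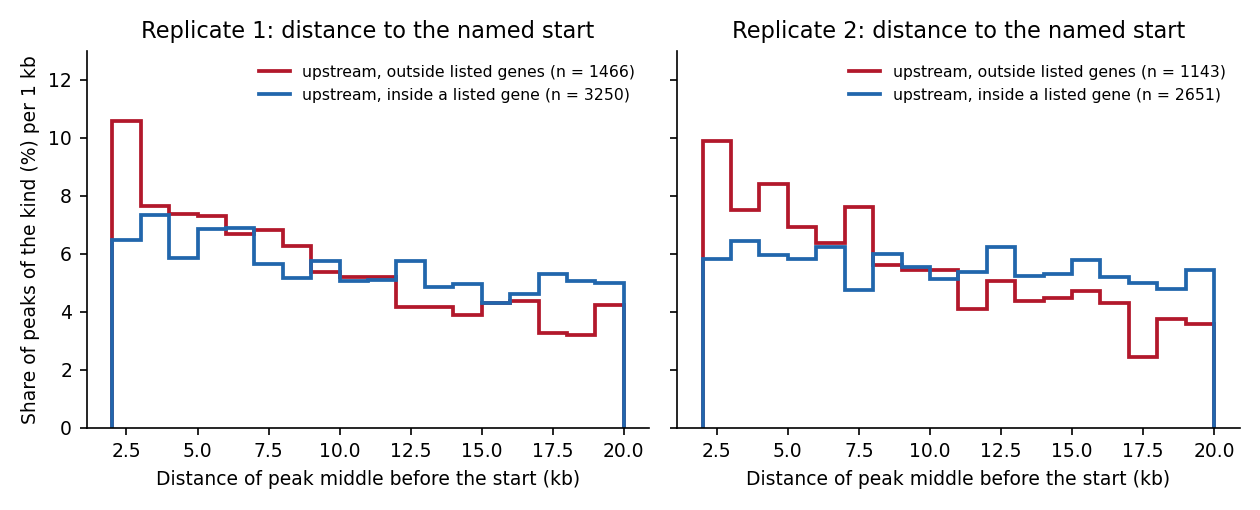
Share of peaks per 1 kb of distance between the peak middle and the nearest named protein-coding start, for upstream peaks outside listed genes (red; 1466 and 1143 peaks) and inside a listed gene (blue; 3250 and 2651 peaks), in each replicate list. The red line is highest near the start and falls with distance in both replicates, while the blue line is flatter.

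At the edges of the rule, the nearest outside upstream peaks stood at -2007 bp in replicate 1 and -2016 bp in replicate 2, and the farthest promoter-class peaks before a start at -1997 bp in replicate 1. On the side of the transcript bounds, 36 peaks of replicate 1 (2.46%) and 18 of replicate 2 (1.57%) reached into a listed transcript although their middle lay outside it. The longest was such a peak: in replicate 1, 10686 bp on chromosome 1 (hg19, 36384585 to 36395270), named for AGO3, had its middle 28.5 bp past the listed end of AGO1, the neighbouring Argonaute gene, and held 3857 reads. A replicate 1 peak on chromosome 8, named for ZNF34 and ZNF517, held 8874 reads at fold 15.84. Its middle lay 1 bp past the listed end of RPL8, a ribosomal protein gene, and the 613 bp peak reached into that transcript.

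Most of the outside upstream peaks were far from the listed end of any gene. The middle lay within 1000 bp past a listed end in 65 replicate 1 peaks (4.43%) and 38 replicate 2 peaks (3.32%), and within 5000 bp in 196 (13.4%) and 130 (11.4%). Peaks within 1000 bp of an end held more reads, with medians of 79 and 37.5, than peaks more than 5000 bp past every listed end, with medians of 32 and 13. A peak of the other replicate overlapped 36.9% of the former in replicate 1 (95% Wilson interval 26.2% to 49.1%) and 23.9% of the latter (21.7% to 26.4%). In replicate 2 the shares were 44.7% (30.1% to 60.3%) and 29.7% (27.0% to 32.6%). The 2 intervals overlap in each replicate. All such intervals cover counting error over peaks only, since each list sets 1 IP against 1 input and peaks are not replicates of the experiment. The reads carry no molecular identifiers as far as the labels say.

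In level, the outside upstream peaks were close to all peaks of their list. The median peak held 33 reads in replicate 1, against 45 over all peaks and 85 in inside upstream peaks. In replicate 2 it held 13, against 15 and 26. The median fold of IP over input was 9.75 in replicate 1, where all peaks had 9.33, and 25.31 in replicate 2, where all peaks had the same value. Folds of the lists differ in scale, so a fold that is higher in replicate 2 is not read as a stronger peak. The median length was 349 bp in replicate 1 and 330 bp in replicate 2. The authors' false discovery rate ran from 17.19% to 25% in replicate 1, and in replicate 2 it was 100% in 631 of the 1143 peaks (55.2%, against 55.9% of all replicate 2 peaks), so single replicate 2 peaks carry little weight.

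Reads were concentrated in few of these peaks. The 10 peaks with the most reads held 53.5% of the 792233 reads under outside upstream peaks in replicate 1 and 45.2% of the 193127 in replicate 2. By comparison, these 1466 and 1143 peaks together held 6.47% and 6.15% of the reads under all peaks of their list. At 1000 reads or more stood 99 replicate 1 peaks, of which 77 overlapped a replicate 2 peak, and 29 replicate 2 peaks, of which 24 overlapped a replicate 1 peak.

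Overlap between the lists was compared first. A replicate 2 peak overlapped 351 of the 1466 replicate 1 peaks by 1 bp or more, or 23.9% (95% Wilson interval 21.8% to 26.2%), where the background over all replicate 1 peaks was 31.6%. A replicate 1 peak overlapped 345 of the 1143 replicate 2 peaks, or 30.2% (27.6% to 32.9%), where the background was 34.7%. In both lists the share was below the background, though among peaks with 20 reads or more the replicate 2 share was 58.8% (54.1% to 63.3%) where all peaks had 60.4%, and at a -log10 p of 5 or more it was 45.0% (40.8% to 49.4%) where all had 49.1%, both within the interval. The overlapping peak was mostly of the same kind, an outside upstream peak for 322 of the 351 and 327 of the 345 by the widest overlap.

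Against inside upstream peaks the shares differed in both replicates. Of inside upstream peaks, 40.3% were overlapped in replicate 1 (odds ratio for outside against inside 0.467, 95% interval 0.406 to 0.536, adjusted p = 1.31e-27, Fisher's exact test, two-sided) and 47.5% in replicate 2 (odds ratio 0.477, 0.412 to 0.553, adjusted exact p = 3.46e-23). The p-values are adjusted over 6 tests by Benjamini-Hochberg, and they speak of the peaks of these 2 lists, since peaks are not replicates of the experiment. The split itself used transcripts listed for either replicate, so peaks of the other list helped to decide which peaks counted as inside. Split and overlap are thus not independent, and how far the rule itself makes this difference was not tested. The same limit holds for the other comparisons of overlap. Inside upstream peaks also held more reads, which moves with overlap. Pooled over classes of read count by the Mantel-Haenszel method, the odds ratio was 0.661 in replicate 1 (4716 peaks) and 0.616 in replicate 2 (3794 peaks), nearer to 1 and still past the adjusted threshold of 0.05.

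The other classes most like these peaks lay closer. Intergenic peaks nearest a coding gene were overlapped in 26.7% of cases in replicate 1 (odds ratio 0.864, 95% interval 0.741 to 1.01, adjusted exact p = 0.0753) and 31.5% in replicate 2 (odds ratio 0.941, 0.804 to 1.10, adjusted exact p = 0.470), which did not pass. Pooled over read classes the replicate 1 value passed (0.751) and the replicate 2 value did not (0.966). Promoter-class peaks before the start were overlapped in 28.1% of cases in replicate 1 (odds ratio 0.806, 0.668 to 0.973, adjusted exact p = 0.0389) and 38.0% in replicate 2 (odds ratio 0.704, 0.577 to 0.859, adjusted exact p = 0.00117). Pooled over read classes the replicate 1 difference no longer passed (0.964) while that of replicate 2 did (0.705), and neither passed among peaks with 20 reads or more (0.864 and 0.713, adjusted exact p = 0.223 and 0.0642).

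Within the outside upstream peaks, overlap rose with reads and hardly moved with distance. In replicate 1 it was 3.53% for peaks under 20 reads (453 peaks), 18.1% from 40 to 79 reads (193 peaks) and 63.4% at 160 reads or more (347 peaks). In replicate 2 it was 4.74% under 8 reads (253 peaks), 32.6% from 15 to 29 reads (175 peaks) and 68.0% at 60 reads or more (256 peaks). In the highest read class of replicate 2 inside upstream peaks stood at 82.4% (79.7% to 84.7%), above the 62.0% to 73.4% interval of the outside ones. In that of replicate 1 they stood at 66.3% (63.6% to 68.9%), and the 58.2% to 68.3% interval of the outside ones overlapped theirs. By distance, the share ran from 23.2% to 24.6% over 4 bins in replicate 1 and from 27.8% to 32.1% in replicate 2, less than the width of each bin's interval. Inside upstream peaks had 43.4% nearest the start and 38.3% farthest from it in replicate 1, also less than those widths, and 54.7% and 40.9% in replicate 2, which is more. Their median reads were lower with distance, 134 and 62 in the nearest and farthest bins of replicate 1 and 39 and 20 in those of replicate 2, while the outside medians were 34 and 32.5, and 13 and 13. The part of reads in this course was not tested.

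**Figure D2:**
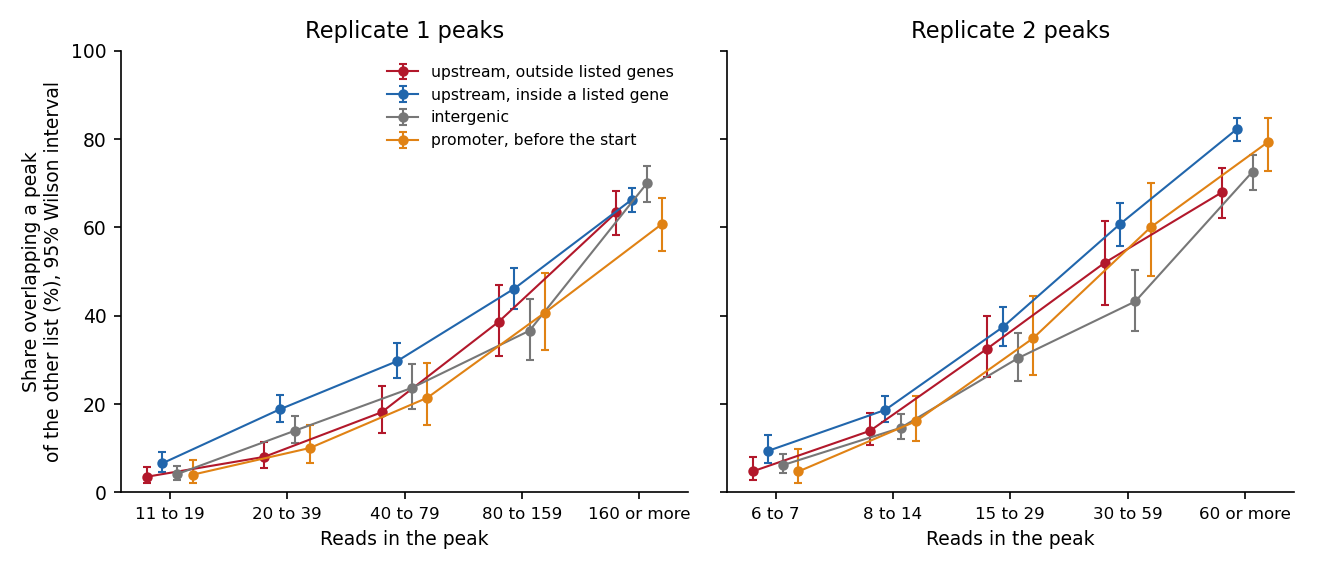
Share of peaks overlapped by a peak of the other list (vertical axis, %) by the number of reads in the peak (horizontal axis, classes), for upstream peaks outside listed genes (red), upstream peaks inside a listed gene (blue), intergenic peaks nearest a coding gene (grey) and promoter-class peaks before a start (orange). Points are shares and bars 95% Wilson intervals; every kind rises with reads in both replicates, and the red points reach 63.4% and 68.0% in the highest class.

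Joining each replicate 1 peak to the widest replicate 2 peak of the same kind gave 324 pairs, naming 273 nearest genes. The median pair held 266 reads in replicate 1 and 67 in replicate 2, with folds of 7.31 and 16.1. Reads of the 324 pairs ranked alike (Spearman's rho 0.851, across peaks, which share their libraries), and folds less so (rho 0.455). Both starts and both ends agreed within 10 bp in 31 pairs, and in 3 pairs the positions were identical. In replicate 2, 75 pairs (23.1%) rested on fewer than 20 reads and 163 (50.3%) had a false discovery rate of 100%.

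**Figure D3:**
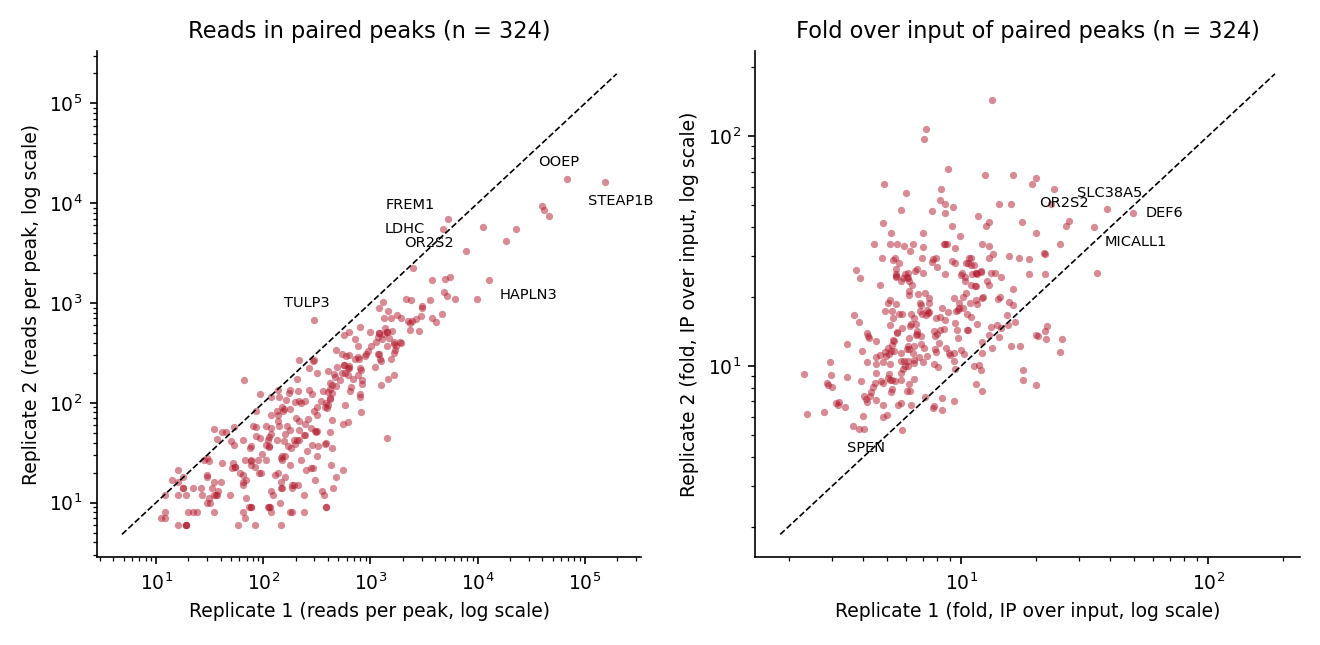
Reads (left) and fold of IP over input (right) of the 324 pairs of overlapping outside upstream peaks, replicate 1 on the horizontal and replicate 2 on the vertical axis, both logarithmic; the dashed line marks equal values, and the fold scales of the lists differ. Most pairs lie below the line in reads and above it in fold; FREM1, LDHC and TULP3 lie above the line in reads.

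The highest read counts stood at single places with similar bounds in both lists. Before OOEP, a gene known from the oocyte, a peak on chromosome 6 (hg19, 74082583 to 74083132) held 68753 reads in replicate 1 and its partner (74082572 to 74083120) held 17665 in replicate 2. Its folds were 6.78 and 17.33, and its middle stood at -3342 and -3331 bp from the start. Before STEAP1B, a gene of the STEAP metalloreductase family, a peak on chromosome 7 (22549879 to 22551683) held 152587 reads in replicate 1, or 19.3% of all reads under these peaks in that list, and 16474 in replicate 2, with folds of 6.42 and 10.27. The STEAP1B peak had the most reads of all outside upstream peaks in replicate 1, and the OOEP peak in replicate 2.

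The next places also held many reads in both lists. Before RNF169, a ubiquitin-binding protein of the DNA damage response, the reads were 39568 in replicate 1 and 9376 in replicate 2, with folds of 8.55 and 14.41. Before RAB39A, a small GTPase of vesicle traffic, they were 41712 and 8571, with folds of 10.58 and 16.77. Before SPEN, a transcriptional corepressor, they were 45896 and 7406, with folds of 4.02 and 5.32. For the SPEN peak of replicate 2 the authors' false discovery rate was 100%, where it was 60.78% for those of OOEP and STEAP1B. TBCA, a tubulin folding cofactor, had 11265 and 5782 reads, and PXN, which encodes the focal adhesion protein paxillin, had 23004 and 5479. Over the 8 pairs ranked highest by the smaller read count, folds ran from 2.89 to 11.58 in replicate 1 and from 5.32 to 17.33 in replicate 2, all with more than 5000 reads in each list. Their lengths were 550 to 1805 bp in replicate 1 and 549 to 1854 bp in replicate 2.

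Against the general ratio of depth, 2 well-covered places held more reads in replicate 2. Replicate 1 held more reads in 308 of the 324 pairs, with a median ratio of 3.17 and quartiles of 2.09 and 5.21. Before FREM1, an extracellular matrix protein, the count was 5343 in replicate 1 (chromosome 9, 14921092 to 14922486) and 6913 in replicate 2 (14921082 to 14922486), with folds of 2.89 and 8.24. Before LDHC, the testis form of lactate dehydrogenase, it was 4735 in replicate 1 (chromosome 11, 18428586 to 18429610) and 5504 in replicate 2 (18428573 to 18429729), with folds of 2.86 and 8.4. Of the 24 pairs with 1000 reads or more in both lists these were the 2 with more reads in replicate 2. Among pairs with fewer reads, TULP3 had 295 and 681. LDHC and TULP3 were singled out after their values were seen.

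The highest folds belonged to peaks with few reads. The smaller of the 2 folds, used here for ranking, was that of replicate 1 in 294 of the 324 pairs. By it DEF6, a guanine nucleotide exchange factor of lymphocytes, came first with 49.54 in replicate 1 (69 reads, chromosome 6, 35248755 to 35249082) and 46.41 in replicate 2 (11 reads). SLC38A5, an amino acid transporter, followed with 38.77 (54 reads) and 47.92 (23 reads). MICALL1, a protein of endosomal recycling, had 34.54 with 1468 reads and 40.09 with 172 reads, at a peak that reached into the listed end of EIF3L, a subunit of translation initiation factor eIF3, with its middle 262.5 bp past that end in replicate 1. The olfactory receptor gene OR2S2 had 27.2 with 7865 reads and 42.6 with 3324 reads at identical bounds, -13515 bp from its start (chromosome 9, 35970890 to 35972442). OR2S2 and MICALL1 thus joined a high fold to many reads in both lists.

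The rest of the 10 highest were LRSAM1, GOLGA6L3, INF2, ROPN1B, MGP and TIMP1, with smaller folds of 21.79 to 26.57. The INF2 peaks, of 277 and 346 bp, overlapped by only 8 bp. TIMP1, an inhibitor of matrix metalloproteinases, had 107 reads at fold 21.79 in replicate 1 and 27 reads at 30.77 in replicate 2, at -19152 and -19162 bp. MGP, a matrix protein that inhibits calcification, had 37 reads at 22.98 and 12 reads at 50.62. LRSAM1, a ubiquitin ligase, had 53 reads at 26.57 and 57 at 40.62, in a peak that lay 3333 bp past the listed end of RPL12, a ribosomal protein gene. The LRSAM1 peak of replicate 2 was also the partner of a second replicate 1 peak, with 85 reads at fold 9.15. In 5 of the 10 pairs the replicate 2 peak held fewer than 20 reads. A fold of 10 or more in both lists was found in 96 pairs (29.6%), and of 20 or more in 14.

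The longest pairs spanned several kilobases. Before ATF4, the transcription factor of the integrated stress response, a peak of 4723 bp in replicate 1 (chromosome 22, 39909508 to 39914230; 1602 reads, fold 6.09) matched one of 4675 bp in replicate 2 (39909527 to 39914201; 530 reads, fold 12.22). Before PLK1, a mitotic kinase, lengths were 3868 and 4946 bp with 2372 and 1075 reads, and folds of 4.47 and 8.41. Before NCAPH, a condensin subunit, they were 4175 and 4011 bp with 764 and 369 reads. The lengths were 1000 bp or more in both lists in 91 pairs and 3000 bp or more in 8.

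Nearest to a start stood a pair before SLC4A7, a bicarbonate transporter, at -2036 and -2030 bp with 580 and 200 reads. ZNF496, at -2067 and -2131 bp, had 12 and 7 reads, and CRYGS, a lens crystallin, at -2077 and -2176 bp, had 195 and 42. Farthest were TUBB2A, a beta tubulin, at -19990 and -19872 bp with 35 and 12 reads, RAB39A at -19904 and -19888 bp, and HDC, which makes histamine, at -19748 and -19975 bp with 16 reads in each list.

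Several genes were named by a row of peaks. Of 1128 nearest genes in replicate 1, 234 had 2 or more outside upstream peaks and 62 had 3 or more; of 922 in replicate 2, 163 and 43 did. Before GAPDH, the glycolytic enzyme often used as a reference gene, there were 6 peaks in each list, 4 of them paired. The reads of these 4 pairs, from the farthest to the nearest, were 38 and 13 at -17445 and -17467 bp, 149 and 90 at -12497 and -12462 bp, 179 and 53 at -7842 and -7849 bp, and 518 and 170 at -2984 and -3056 bp. The nearest, on chromosome 12 at 6640006 to 6641167 in replicate 1 and 6639866 to 6641163 in replicate 2, had folds of 13.19 and 14.7. The 2 unpaired peaks held 22 reads at -13366 bp and 78 at -11478 bp in replicate 1, and 28 at -16753 bp and 19 at -4512 bp in replicate 2. The peak nearest the start held the most reads in each list, and the counts farther out rose and fell.

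VHLL, a relative of the von Hippel-Lindau gene, also had 4 pairs, with 75 to 716 reads in replicate 1 and 35 to 277 in replicate 2; 2 of its replicate 1 peaks fell under the same replicate 2 peak. HAPLN3, a hyaluronan link protein gene, had 3 pairs with the most reads among these genes, 12726 and 1696 at the nearest, 1889 and 406, and 1710 and 337. CHRNA10, an acetylcholine receptor subunit, had 3 pairs with 86 to 1197 reads in replicate 1 and 83 to 501 in replicate 2. SLC38A5 had 3 with 54 to 793 and 23 to 225. OGG1, a DNA repair glycosylase, CLIC3, a chloride channel family protein, and SERPINF2, an inhibitor of plasmin, had 3 each, with no replicate 2 count above 37. NXPH4, a neurexophilin singled out after its values were seen, had the most in replicate 1, 9 peaks with 20 to 355 reads, and 1 in replicate 2 with 13 reads, so this row was hardly seen in the second list.

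**Figure D4:**
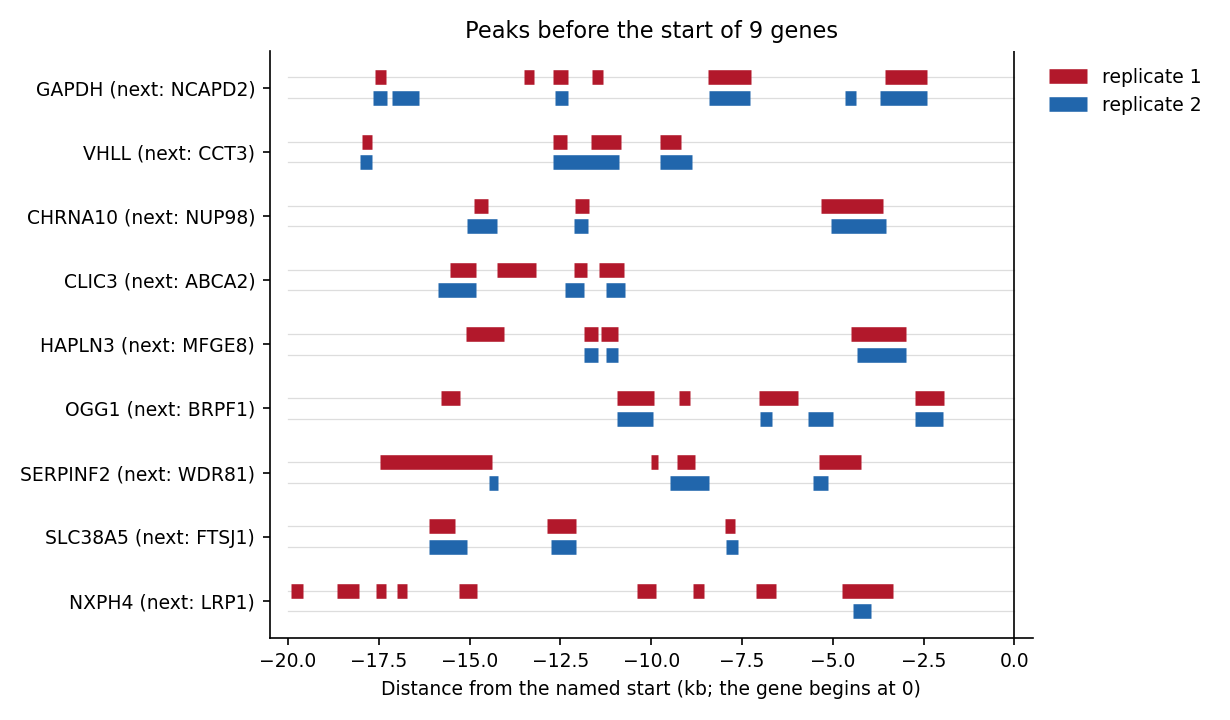
Outside upstream peaks before the start of the 8 genes with 3 or more pairs and of NXPH4, drawn at their distance from the start (kb, gene start at 0) and to scale in length, replicate 1 in red and replicate 2 in blue. The name in brackets is the next protein-coding gene on that side, none of which was listed. The first 8 genes were chosen for their overlapping peaks, so that peaks recur in both lists follows from the choice. Some of their peaks have no partner, such as that of HAPLN3 at -14575 bp with 3253 reads in replicate 1. NXPH4 has 9 peaks in replicate 1 and 1 in replicate 2.

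Which gene comes next on the upstream side was read from the RefSeq gene order of assembly GRCh38, from which no positions were taken. For 1450 of the 1466 replicate 1 peaks and 1130 of the 1143 replicate 2 peaks a next protein-coding gene was found, and it was in neither list for 877 (60.5%) and 677 (59.9%). Over all 11180 coding genes named in the lists with a next gene, the background was 36.5%. The rule left out peaks inside listed genes and so favours unlisted neighbours, and nothing is read from the difference. Among the 324 pairs, the neighbour was unlisted in 219 of 320 (68.4%).

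All 8 genes with 3 or more pairs had such an unlisted neighbour. Behind GAPDH stands NCAPD2, a condensin subunit; behind VHLL stands CCT3, a subunit of the cytosolic chaperonin; behind HAPLN3 stands MFGE8, a secreted glycoprotein. CHRNA10 is followed on that side by NUP98, a nucleoporin, SLC38A5 by the transfer RNA methyltransferase FTSJ1, OGG1 by the chromatin reader BRPF1, CLIC3 by the transporter ABCA2 and SERPINF2 by WDR81. NXPH4 is followed by LRP1, a lipoprotein receptor, and LDHC by LDHA, the main lactate dehydrogenase of glycolytic cells. The neighbours of the 3 longest pairs were unlisted too: MIEF1 behind ATF4, DCTN5 behind PLK1 and ITPRIPL1 behind NCAPH. None of these genes had a row in either list, and whether the peaks lie in them was not tested, since hg19 bounds of unlisted genes were not used here.

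Of the 8 pairs highest in reads, 3 had an unlisted neighbour, and of the 9 highest in fold with a known neighbour, 5 had one. Over all pairs with a known neighbour it was 219 of 320 (68.4%), and over all coding genes with a next gene 36.5%. Nothing is read from counts this small. Before OOEP, RAB39A, SPEN, TBCA and FREM1 the next coding genes DDX43, SLC35F2, UQCRHL, AP3B1 and TTC39B were listed, and the peaks lay outside their listed bounds.

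Peaks with an unlisted neighbour held more reads than those with a listed one. The medians were 44 against 25 reads in replicate 1 and 16 against 10 in replicate 2. They were also longer, with medians of 381 against 297 bp and 350 against 289 bp. Of the peaks with an unlisted neighbour, 26.2% overlapped a peak of the other list in replicate 1 (95% Wilson interval 23.4% to 29.2%) and 33.4% in replicate 2 (29.9% to 37.0%). With a listed neighbour it was 20.4% (17.3% to 23.9%) and 24.9% (21.2% to 29.1%), and in replicate 2 the intervals do not overlap. These shares are descriptions, and the difference between them was not tested. Against intergenic peaks, the outside upstream peaks with a listed neighbour alone had an odds ratio of 0.704 in replicate 1 (adjusted exact p = 0.00248) and 0.724 in replicate 2 (adjusted exact p = 0.00649), a comparison added after the data were seen. The intergenic peaks were not restricted by neighbour, and their median reads were higher, 30 in replicate 1 and 13 in replicate 2. This comparison was not pooled over read classes.

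Some peaks lay before more than 1 gene. In replicate 1, 192 peaks named 2 or 3 coding genes, and in 121 of them (63.0%) the genes were on opposite strands. In replicate 2 it was 78 of 113 (69.0%). Peaks with genes on both strands were overlapped in 24.0% of cases in replicate 1 (17.2% to 32.3%) and 29.5% in replicate 2 (20.5% to 40.4%), close to the share of all outside upstream peaks. An example is the gap between LASP1, an actin-binding protein gene, and RPL23, a ribosomal protein gene, on chromosome 17. A peak there at 37017774 to 37018072 held 30 reads at fold 12.96 in replicate 1 and 10 reads at 42.19 in replicate 2. A further peak at 37023372 to 37023747 held 40 reads at 12.42 and 16 reads at 67.5.

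The second comparison asked whether the gene named by an outside upstream peak also held a peak of its own. Genes named by both kinds of upstream peak were left out. A promoter, exon or intron peak in the same list was held by 607 of 1109 such genes in replicate 1 (54.7%) and 483 of 905 in replicate 2 (53.4%), where the background over all coding genes named was 78.4% and 79.5%. Of genes named by inside upstream peaks it was 1287 of 1981 (65.0%) and 1106 of 1732 (63.9%). The odds ratio was 0.652 in replicate 1 (95% interval 0.561 to 0.758, adjusted p = 5.69e-08, Fisher's exact test, two-sided) and 0.648 in replicate 2 (0.550 to 0.763, adjusted exact p = 1.99e-07). With exon and intron peaks alone the direction turned, with odds ratios of 1.27 in replicate 1 (39.4% against 33.9%, adjusted p = 0.00457 by the exact test) and 1.22 in replicate 2 (41.3% against 36.5%, adjusted p = 0.0181). The background over all coding genes named was then 57.2% and 60.8%, and of the 2 kinds the outside one was the higher. Genes can enter either background through a promoter, exon or intron peak itself, which raises it. Nothing is therefore read from shares that lie below a background. The direction of the first result was therefore seen only with promoter peaks counted, and the cause was not tested.

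Gene families were counted among the 301 genes that a pair named, which are 2.67% of the 11270 coding genes in the lists. Ribosomal protein genes had 4 of 63, RPL17, the readthrough gene RPL17-C18orf32, RPL23 and RPS26. Before RPS26 on chromosome 12, replicate 1 had 2 peaks, with 137 reads at fold 9.31 (56428343 to 56430148) and 178 at 8.88 (56430666 to 56432247). Both fell under a single replicate 2 peak of 3887 bp (56428376 to 56432262) with 135 reads at 11.38. ZNF zinc finger genes had 8 of 338, with ZNF37A at 556 and 61 reads and folds of 17.34 and 12.17, and solute carriers had 5 of 212. These shares of 2.37% and 2.36% are close to the 2.67% background.

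Small families gave small counts. Of 26 olfactory receptor genes 2 were named, OR2S2 and OR10K1, the latter with 3787 and 1701 reads and folds of 2.31 and 9.18. Of 8 keratin genes KRT7 was named, with 12 reads in each list. TMEM genes had 3 of 157, TRIM genes 1 of 45, TRIM24, with 263 and 69 reads, and translation factors 1 of 56, EIF3D, with 216 and 53. Of 16 glycolysis genes in the lists GAPDH alone was named. No pair named a histone gene (0 of 42), an adhesion or epithelial to mesenchymal transition gene (0 of 18), a fibroblast marker (0 of 9), an immediate early or stress gene (0 of 15) or a messenger ribonucleoprotein gene (0 of 12). ATF4 and LDHC stand in none of these lists. With counts this small no list stands apart.

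Chromosome 19, which is dense in genes, held more of these peaks than of all peaks, 11.5% against 6.86% in replicate 1 (169 peaks) and 8.75% against 5.54% in replicate 2 (100 peaks). Chromosome 1 held 9.82% against 9.70% and 9.27% against 9.72%. Chromosome 2 held 4.57% against 6.80% in replicate 1 and 7.17% against 7.52% in replicate 2. Some genes were chosen because upstream peaks of theirs were already known from these lists. Of these, GAPDH, OR2S2 and OR10K1 were named by outside upstream peaks and OR6S1 by neither kind. The upstream peaks of PKM, RPS16, EEF1D, RPL12, ALDOC, TAGLN, CEL, CTRC and CRIP2 had their middle inside a listed transcript. Whether that transcript belonged to another gene was not tested.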

How the data were processed

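The authors deposited 2 peak lists, each setting 1 YBX1 IP against its input. Per the submitters' processing notes the tools were cutadapt 1.9.1 and Bowtie2 2.2.4 and the build hg19; no source used here names the peak caller. Per the file headers, the tag count is the number of reads in the peak, unscaled. The deposited fold is IP over input, the deposited score is 10 times the negative log10 of p, and the deposited false discovery rate is in percent; positions and distances are in bp. The lists start at scores of 119.51 and 30, so their depth and cut differ; library totals were not used here.

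Rows (60488 and 55416) were collapsed to unique peaks. Peaks overlapping by 1 bp or more counted as the same place. Classes were compared by Fisher's exact test with Benjamini-Hochberg adjustment (scipy 1.17.1, statsmodels 0.14.6; threshold 0.05), checked on simulated data. Next genes came from the GRCh38 RefSeq table, to which 98.8% of rows matched by accession and 99.5% in all. Pairs named were the 10 highest by smaller fold, 8 by smaller reads, 5 genes by pairs (8 because of ties), 3 nearest, 3 farthest and 3 longest, and up to 4 of each gene list. Members and lists were chosen with earlier results of these data known. Depth, score, fold, overlap and membership alternatives were tried.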

Additional observations from a re-analysis of the deposited data

How the results depend on the processing

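The odds ratio against inside upstream peaks passed in both replicates in every alternative for which it was computed. At -log10 p of 5 or more all 1466 replicate 1 peaks stayed, so for them only the replicate 2 list was thinned. At a fold of 4 or more all 1143 replicate 2 peaks stayed, so for them only the replicate 1 list was thinned. Overlap of 50% of both peaks gave shares of 18.3% and 23.2% (all peaks 26.4% and 28.7%), -log10 p of 5 or more 16.2% and 45.0% (22.2% and 49.1%), 20 reads or more 26.8% and 58.8% (31.2% and 60.4%), and a listed neighbour (added after the data were seen) 20.4% and 24.9%. Against intergenic peaks the replicate 1 odds ratio passed at 50% overlap (0.798), at -log10 p of 5 or more (0.817), with whole peaks outside transcripts (0.823), with a listed neighbour (0.704) and pooled over read classes (0.751). The replicate 2 value passed with a listed neighbour (0.724) and turned to 1.00121 at a fold of 4 or more (adjusted exact p = 1). Against promoter peaks it did not pass at 20 reads or more (0.864 and 0.713) and, in replicate 1, pooled over read classes (0.964). With exon and intron peaks alone the gene-body odds ratios turned to 1.27 and 1.22. The cause of this change and of the others was not tested. By transcripts of the peak's own list there were 1918 and 1634 peaks of this kind, and no odds ratio was computed for that split.

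No paired analysis was possible because each list already joins 1 IP to its input and holds no separate columns. Leaving out a replicate gives no overlap, so values stand per list. Replicate 2 peaks hold few reads, which limits their folds.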
